A study of Mus musculus with 157 samples.

Results

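Ser2p over gene bodies was compared between 72 h and 48 h of retinoic acid in wild-type mouse E14 embryonic stem cells, in 5 of the 157 samples of the series. The 5 libraries were chosen by the antibody and hours in their labels, as the raw-count columns of Ser2p at 48 h (replicates 1, 2 and 3) and at 72 h (replicates 1 and 3). All were crosslinked chromatin immunoprecipitations of cells of 1 line, kept on gelatin with serum and leukaemia inhibitory factor, and given 1 µM retinoic acid, so both groups had been treated and differ in its duration. The other 13 Ser2p libraries (0, 2, 4, 6 and 24 h) shared in the estimate of spread, and the 2 libraries at 0 h were untreated. Libraries held 19261078 to 20955729 reads over gene bodies at 48 h and 19992444 and 19424532 at 72 h, for 33985 transcripts. The labels leave unsaid whether replicates were grown separately, and the spread behind each p-value may therefore be technical.

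The largest subunit of RNA polymerase II (Pol II) ends in a long repeat whose serines are phosphorylated as the enzyme moves along a gene. Serine 5 is marked near the start, and serine 2, by kinases such as CDK9, CDK12 and CDK13, in the body and towards the end, so Ser2p over a gene body is read as elongating Pol II. Retinoic acid binds nuclear receptors, induces its own degrading enzymes and Hox genes, and takes embryonic stem cells out of pluripotency. In such cultures some cells turn on endoderm genes, among them those of the basement membrane, the sheet of laminin and type IV collagen under epithelia. ChIP-seq of a mixed culture cannot tell fewer cells of a type from less Pol II per cell.

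No transcript passed the test of 72 h against 48 h. At an adjusted p of 0.05 (edgeR quasi-likelihood with Benjamini-Hochberg adjustment), 0 of the 32123 transcripts tested passed in either direction (0% higher, 0% lower), the lowest adjusted p was 0.0961, at Lamb1, and 982 had an unadjusted p under 0.05. DESeq2, the alternative tool, called 5 transcripts higher (0.0147%) and 4 lower (0.0118%). Those higher were of Lama1, Lamb1, Lamc1 and Sparc, which encode laminin chains and a matrix protein, and those lower included Lefty1, a gene activated by Nodal signalling. The authors' deposited table had 7 higher (0.0206%) and 6 lower (0.0177%), and its higher genes included Col4a1 and Col4a2, the type IV collagen chains. All 9 transcripts called by DESeq2 were among the 13 of the authors' deposited table. The authors used the same tool on the same libraries, so this overlap is not independent support.

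At most genes the confidence intervals were narrow, with the spread estimated from the libraries of all times. The coefficient of variation between libraries was 0.0899 in that fit, against 0.121 with only the 48 h and 72 h libraries. The intervals may therefore understate the spread between the libraries compared. Where signal was near background, an interval bounds background and not a change in elongating Pol II. The 95% confidence interval of the change lay within 1.5-fold in either direction for 16758 of 22154 genes (75.6%) and within 2-fold for 20392 (92.0%). A gene is here represented by its transcript with the highest mean count. The median standard error (SE) was 0.134 on the log2 scale, 26 genes had an estimate over 2-fold higher (0.117%) and 45 one over 2-fold lower (0.203%). Of the 22154 genes, 327 (1.48%) had an unadjusted p under 0.05 and a higher value at 72 h, and 352 (1.59%) a lower one. Both 72 h libraries lay above all 48 h libraries at 1096 genes (4.95%) and below them at 1367 (6.17%).

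**Figure D1:**
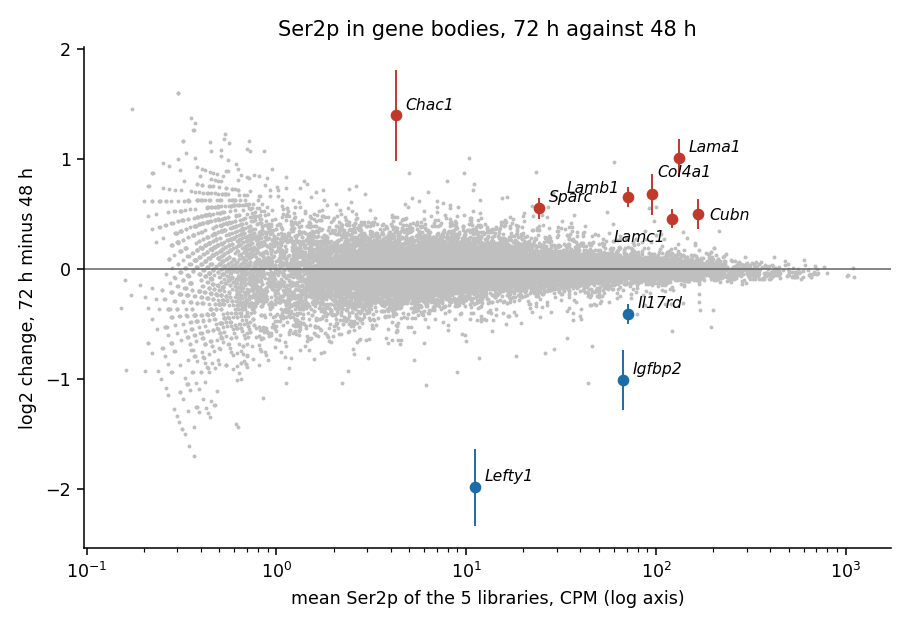
Log2 change of Ser2p from 48 h to 72 h (vertical axis) against mean Ser2p of the 5 libraries in CPM (read counts scaled to library size, horizontal log axis) for 22154 genes in grey, with bars of 1 SE at 10 named genes. Among genes of more than 10 CPM, Lefty1 lies lowest at -1.98 and Lama1 highest at 1.01. None passed the edgeR test.

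The libraries did not sort by time. Contrast was measured as the median FPKM (the authors' length-scaled unit) of the 1000 genes of highest mean signal over that of 1401 transcripts of olfactory and vomeronasal receptor genes, taken here as silent. It was 6.39, 11.5 and 7.50 in the 48 h libraries (replicates 1, 2 and 3) and 5.92 and 11.98 in the 72 h libraries (replicates 1 and 3), against 5.25 to 13.8 over all 18 Ser2p libraries. The 2 libraries at 72 h were the least alike of the 5, with a correlation of 0.972 over 15591 genes of at least 5 CPM and an SD of the log2 differences of 0.335. By the same measures 72 h replicate 1 was nearest to 48 h replicate 1 (0.995, SD 0.145), and 72 h replicate 3 to 48 h replicate 2 (0.991, SD 0.187). Among the 3118 genes with the highest mean FPKM, 72 h replicate 3 stood above replicate 1 by a median of 0.40 on the log2 scale, and among the 3119 with the lowest the median was -0.25. The part of this contrast in the results that follow was examined in 1 way, by entering it as a covariate, an alternative chosen after seeing the data. With it, edgeR called 28 transcripts of 17 genes higher (0.0872%) and 49 of 28 genes lower (0.153%). These held all 13 transcripts of the authors' deposited table, which comes from the same libraries and is not independent of them.

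**Figure D2:**
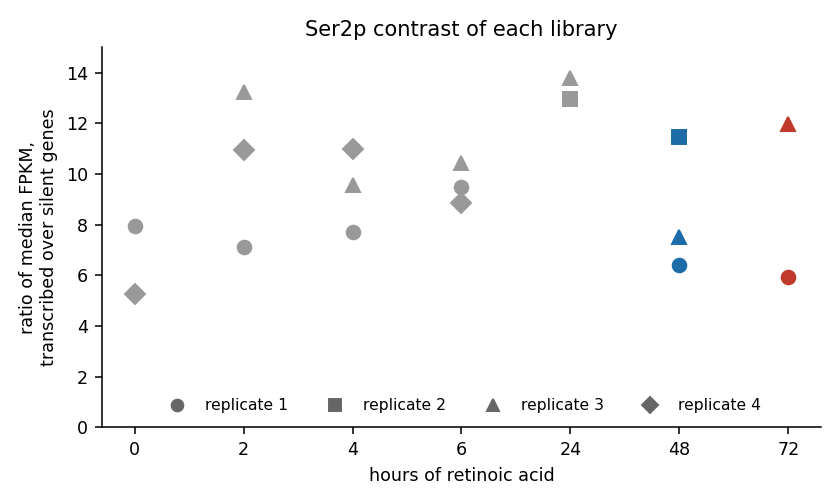
Ratio of median FPKM at transcribed over silent genes (vertical axis) in each of 18 Ser2p libraries by hours of retinoic acid; the symbol gives the replicate number. At 48 h (blue) the 3 libraries range from 6.39 to 11.5, and at 72 h (red) the 2 libraries stand at 5.92 and 11.98.

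Upstream sequence is shown for 4 genes, 2 with higher and 2 with lower values at 72 h, to show what kind of promoter lies before them. Of 13 genes that the comparison turned on, 8 had an entry in the RefSeq promoter table (build GRCm38). The 4 shown were picked by name. Lamb1, Col4a1, Col4a2 and Dab2, with higher values at 72 h, also had an entry and are not shown. From those entries, up to 250 bases before the start are given 5′ to 3′ on the gene's strand, in lower case, with each GC box (GGGCGG on either strand) in capitals. Bases that lie in an annotated gene are left out.
Sparc, chr11:55420081-55420330, minus strand: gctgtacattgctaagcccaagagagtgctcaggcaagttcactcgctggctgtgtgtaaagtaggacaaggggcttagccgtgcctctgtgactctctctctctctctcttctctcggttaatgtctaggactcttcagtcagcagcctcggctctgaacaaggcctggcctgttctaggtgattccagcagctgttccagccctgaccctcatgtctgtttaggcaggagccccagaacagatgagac
Cubn, chr2:13491877-13492126, minus strand: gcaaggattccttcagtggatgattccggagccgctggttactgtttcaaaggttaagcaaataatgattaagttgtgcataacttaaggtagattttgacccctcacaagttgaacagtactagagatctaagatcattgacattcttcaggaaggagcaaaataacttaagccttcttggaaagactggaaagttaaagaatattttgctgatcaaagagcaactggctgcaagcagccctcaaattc
Igfbp2, chr1:72824230-72824479, plus strand: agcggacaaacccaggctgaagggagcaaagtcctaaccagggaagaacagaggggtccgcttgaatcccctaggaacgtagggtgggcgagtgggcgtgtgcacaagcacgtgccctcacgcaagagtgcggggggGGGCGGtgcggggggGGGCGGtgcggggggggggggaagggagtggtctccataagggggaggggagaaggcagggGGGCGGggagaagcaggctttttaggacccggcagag
Il17rd, chr14:27038751-27038963, plus strand: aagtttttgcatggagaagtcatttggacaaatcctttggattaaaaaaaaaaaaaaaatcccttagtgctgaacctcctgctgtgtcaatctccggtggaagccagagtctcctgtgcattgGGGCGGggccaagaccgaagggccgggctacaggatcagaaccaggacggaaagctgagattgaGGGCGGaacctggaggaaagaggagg

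The printed stretch of Igfbp2 held 3 GC boxes and that of Il17rd 2, while those of Sparc and Cubn held 0. Among 32851 promoters in the table, 32.7% held a GC box within the same 250 bases, and 27.4% within a stretch of 213, the length printed for Il17rd. The letters AGATAA, searched on both strands as the motif of GATA factors, were in none of the 4 (0), and in 9.99% of promoters over 250 bases. These are matches of letters and not measured binding. GC boxes of the matched genes not shown were not counted, so the difference cannot be read as one between genes with higher and lower values. The base composition was 54% G and C at Sparc, 39.6% at Cubn, 67.2% at Igfbp2 and 50.2% at Il17rd.

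Genes of the basement membrane were among those with the smallest p-values. Laminin-111, the first laminin of the embryo, is a trimer of the chains encoded by Lama1, Lamb1 and Lamc1, and all 3 genes had higher Ser2p in both 72 h libraries than in any 48 h library.

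Lama1 (chromosome 17, 67697127 to 67822645 of GRCm38) encodes the alpha chain. Its Ser2p was 119.6, 86.7 and 75.9 CPM in 48 h replicates 1, 2 and 3, and 233.9 and 145.5 CPM in 72 h replicates 1 and 3. The change was 2.01-fold (interval 1.56 to 2.60), or 1.01 ± 0.17 (SE) on the log2 scale, with an adjusted p of 0.203 by edgeR and of 1.86e-04 by DESeq2. Lama1 was called by edgeR without 48 h replicate 1 (adjusted p = 0.0285), and not without 48 h replicate 2 or without 48 h replicate 3. With 72 h replicate 3 left out Lama1 was called, and with 72 h replicate 1 left out it was not. In those fits the lone 72 h library is assumed to vary like the other groups. Lama1 was also called with the covariate (1.00 ± 0.11, adjusted p = 7.36e-05).

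Lamb1 (chromosome 12, 31265146 to 31329644), the beta chain gene, stood at 64.5, 56.9 and 53.2 CPM at 48 h and at 101.7 and 81.7 CPM at 72 h. It was 1.57-fold higher at 72 h (0.66 ± 0.09, adjusted p = 0.0961 by edgeR and 2.21e-05 by DESeq2), with an interval of 1.37 to 1.81. The gamma chain gene Lamc1 (chromosome 1, 153218922 to 153332786) stood at 107.7, 110.9 and 99.6 CPM at 48 h and at 156.8 and 134.7 CPM at 72 h. Its change was smaller, 1.37-fold (0.46 ± 0.08, adjusted p = 0.243 by edgeR and 0.00663 by DESeq2).

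Col4a1 and Col4a2 lie head to head on chromosome 8 (11198423 to 11312889 and 11312805 to 11449287), so reads near their shared start cannot be told apart. Ser2p over Col4a1 was 91.8, 69.6 and 68.3 CPM at 48 h and 151.6 and 93.8 CPM at 72 h (0.68 ± 0.19, adjusted p = 1.00 by edgeR). Over Col4a2 it was 89.4, 70.8 and 72.2 CPM at 48 h and 139.6 and 87.7 CPM at 72 h (0.55 ± 0.16), and its 72 h replicate 3 lay within the 48 h values. The authors' deposited table gave an adjusted p of 2.82e-04 for Col4a1 and of 0.0331 for Col4a2. Sparc (chromosome 11, 55394159 to 55420080), whose product binds collagen and calcium, was tight within each time. It stood at 19.5, 20.4 and 21.2 CPM at 48 h and at 27.3 and 32.4 CPM at 72 h (0.55 ± 0.10, adjusted p = 0.203 by edgeR and 0.00663 by DESeq2).

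Of 23 genes of basement membrane and matrix tested, 0 were called by edgeR. Of the 23, 8 had an unadjusted p under 0.05 and a higher value, where 1.48% of all genes did, and 1 a lower value, P4ha2, a collagen prolyl hydroxylase gene (-0.32 ± 0.13). The list median was 0.11, against -0.0014 over all genes. The nidogen gene Nid1 (-0.06 ± 0.13), the perlecan gene Hspg2 (0.15 ± 0.14) and the laminin gene Lama5 (-0.02 ± 0.18) had intervals that included no change. The list was chosen with earlier results of these data known, so its count is not independent support. Summed FPKM of its members was 26.5 to 29.7 at 48 h and 31.3 to 32.7 at 72 h.

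Per length, these signals were low. Silent genes had a median FPKM of 0.584 to 0.667 in the 48 h libraries and of 0.572 and 0.710 at 72 h. Lama1 had 0.889 to 1.39 FPKM at 48 h and 1.73 and 2.73 at 72 h, and Lamb1 1.21 to 1.46 and then 1.90 and 2.32. For comparison the cytoskeletal gene Actb had 15.5 FPKM in 72 h replicate 1 and 39.3 in replicate 3. In 48 h replicate 3, Lama1 at 0.889 FPKM was thus close to the 0.654 FPKM of the median silent gene. Sparc had 1.10 to 1.20 FPKM at 48 h and 1.54 and 1.87 at 72 h. Of the 23 genes of basement membrane and matrix, 13 had a mean FPKM at or below 1.33, the 95th percentile of silent genes. Col4a1 and Col4a2 were among these 13, so their signal was near background.

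Against untreated cells, the 48 h libraries had 454 transcripts called higher (1.41%) by edgeR and 111 called lower (0.346%). At 72 h the numbers were 411 (1.28%) and 110 (0.342%). These comparisons share libraries with that of 72 h against 48 h, so the values stand side by side and do not add support. Lama1 had a change from 0 h of 0.24 at 48 h (adjusted p = 0.521) and of 1.25 at 72 h (adjusted p = 0.00517). Lamb1 had 0.50 (adjusted p = 0.0163) and 1.16 (adjusted p = 2.25e-04), and Lamc1 0.11 (adjusted p = 0.521) and 0.57 (adjusted p = 0.00601). Sparc had 0.19 (adjusted p = 0.339) and 0.74 (adjusted p = 0.00283). Up to 24 h, Lama1 stayed between 66.1 and 82.2 CPM in all 13 libraries.

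**Figure D3:**
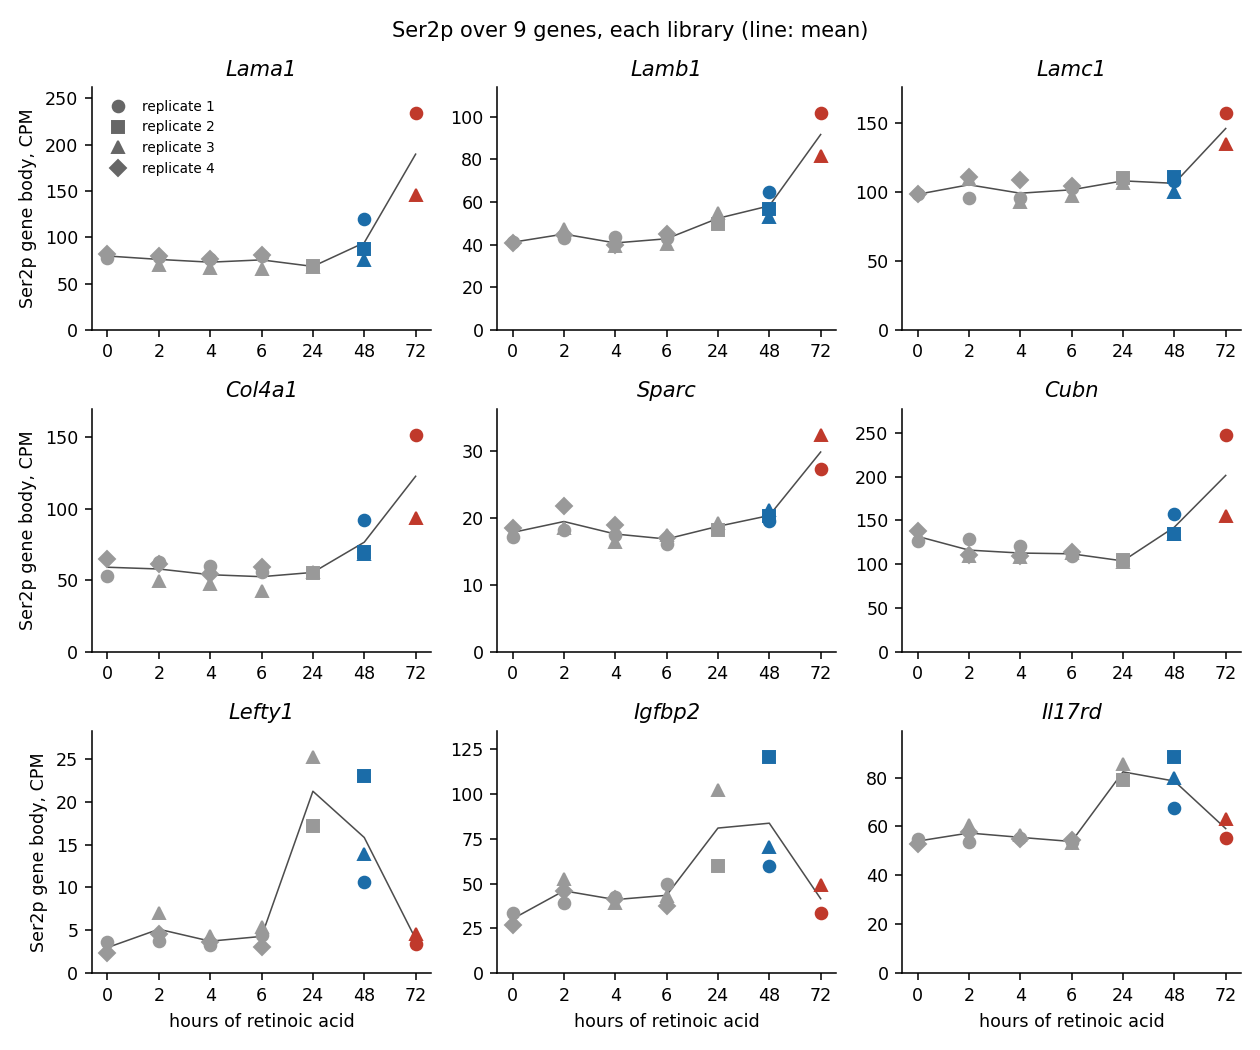
Ser2p over 9 gene bodies in CPM (vertical axes from 0) in each of 18 libraries by hours of retinoic acid, with a line through the means; blue marks 48 h, red 72 h, and the symbol the replicate. The first 6 genes have their highest mean at 72 h, while Lefty1 stands at 17.2 and 25.2 CPM at 24 h and at 3.41 and 4.60 at 72 h.

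Genes of the primitive endoderm, the extraembryonic lineage that lays down laminin, were examined next. Cubn (chromosome 2, 13276338 to 13491876) encodes cubilin, an uptake receptor of that tissue. It stood at 157.3, 134.9 and 134.5 CPM at 48 h and at 247.6 and 155.2 CPM at 72 h, so only 72 h replicate 1 lay outside the 48 h values (0.50 ± 0.13, adjusted p = 1.00 by edgeR). It was called without 72 h replicate 3 (0.80, adjusted p = 0.00761), and had 0.13 (adjusted p = 0.626) without 72 h replicate 1. The endoderm factor genes Gata4 (0.35 ± 0.12) and Gata6 (0.31 ± 0.19) and the adaptor gene Dab2 (0.28 ± 0.13) were not called. With the covariate Gata4 (adjusted p = 0.00982), Dab2 (adjusted p = 0.0143) and Cubn (adjusted p = 6.34e-04) were called higher, and Gata6 was not (adjusted p = 0.635). Sox17, another endoderm factor gene, was at 4.94, 4.94 and 3.84 CPM at 48 h and at 4.84 and 4.76 CPM at 72 h.

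Of 18 primitive endoderm genes tested, 3 had an unadjusted p under 0.05, all with higher values (1.48% of all genes), the list median was 0.08, and 0 were called by edgeR. The median of these 18 genes was 0.04 without 72 h replicate 1 and 0.16 without replicate 3. Their summed FPKM was 18.8 to 21.2 at 48 h and 21.8 and 22.0 at 72 h. Of the 18, 17 had a mean FPKM at or below 1.33, the 95th percentile of silent genes, and 0 were at a count of 0. At this level a ChIP signal does not show which of these genes were transcribed.

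Lefty1 had the largest negative log2 change among the 22154 genes tested. Lefty1 (chromosome 1, 180935022 to 180938401) encodes a secreted inhibitor of Nodal, the TGF-beta ligand that patterns the early embryo, and is itself switched on by Nodal. Its Ser2p was 10.6, 23.02 and 13.8 CPM at 48 h and 3.41 and 4.60 CPM at 72 h, with no overlap. The change was -1.98 ± 0.35 on the log2 scale (interval -2.72 to -1.24), with an adjusted p of 0.203 by edgeR, of 2.21e-05 by DESeq2 and of 4.19e-06 in the authors' deposited table. Its values were 3.68 and 2.32 CPM at 0 h, so Ser2p stood higher at 48 h than at 0 h (2.40, adjusted p = 0.00214) and was not called against 0 h at 72 h (0.42, adjusted p = 0.626).

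Lefty2, the neighbour and paralogue of Lefty1, stood at 4.60, 6.83 and 4.47 CPM at 48 h and at 3.16 and 3.62 CPM at 72 h (-0.65 ± 0.19, adjusted p = 1.00). Nodal itself was at 9.73, 17.3 and 11.999 CPM at 48 h and at 8.70 and 12.9 CPM at 72 h (-0.27 ± 0.27), where the times overlapped.

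Igfbp2 (chromosome 1, 72824480 to 72852474), which encodes a binding protein of insulin-like growth factors, was at 60.1, 120.8 and 70.3 CPM at 48 h. It was at 33.8 and 49.4 CPM at 72 h, lower in both libraries than in any at 48 h (-1.01 ± 0.27, adjusted p = 1.00 by edgeR). Il17rd (chromosome 14, 27038964 to 27107286), which encodes the feedback inhibitor Sef of FGF signalling, was at 67.5, 88.5 and 79.7 CPM at 48 h and at 55.2 and 63.0 CPM at 72 h (-0.41 ± 0.09, adjusted p = 0.915). In each of Lefty1, Igfbp2 and Il17rd the highest value was that of 48 h replicate 2, the 48 h library of highest contrast. Without that library the changes were -1.61 at Lefty1, -0.65 at Igfbp2 and -0.31 at Il17rd. With contrast as a covariate the 3 genes were called lower, Lefty1 with -2.03 ± 0.19 (adjusted p = 5.84e-06), Igfbp2 with -1.02 ± 0.16 (adjusted p = 0.00264) and Il17rd with -0.42 ± 0.06 (adjusted p = 0.00112).

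Total Pol II and Ser5p were measured in the same design and give other readouts of these genes. Total Pol II (NTD, after the N-terminal domain its antibody binds) over gene bodies was called higher at 72 h at 1 of 31843 transcripts (0.00314%), which was Lamb1, and lower at 0 (0%). Ser5p within 1 kb of the transcription start site (TSS) was called higher at 4 of 32774 transcripts (0.0122%) and lower at 1 (0.00305%), which was Lefty1. NTD at the TSS was called higher at 159 of 31868 (0.499%) and lower at 14 (0.0439%). These counts moved widely with single libraries: without 72 h replicate 1 the calls numbered 1876 and 320 for NTD over gene bodies, 172 and 20 for Ser5p and 582 and 46 for NTD at the TSS.

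Over Lamb1, NTD was 72.5, 67.1 and 59.8 CPM at 48 h and 122.8 and 109.5 CPM at 72 h, and rose by 0.80 ± 0.09 (adjusted p = 0.0114). NTD changes over the bodies of Lama1 (1.30 ± 0.19, adjusted p = 0.0638), Sparc (0.71 ± 0.11, adjusted p = 0.0638), Lamc1 (0.69 ± 0.11, adjusted p = 0.0738) and Col4a1 (0.91 ± 0.17, adjusted p = 0.301) were positive and were not called. At the TSS of Lefty1, Ser5p was 77.2, 139.4 and 76.2 CPM at 48 h and 26.8 and 20.6 CPM at 72 h, and fell by 2.05 on the log2 scale (-2.05 ± 0.26, adjusted p = 2.27e-05). NTD there was 71.3, 115.7 and 76.8 CPM and then 23.5 and 23.9 CPM (-1.91 ± 0.24, adjusted p = 4.70e-06).

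**Figure D4:**
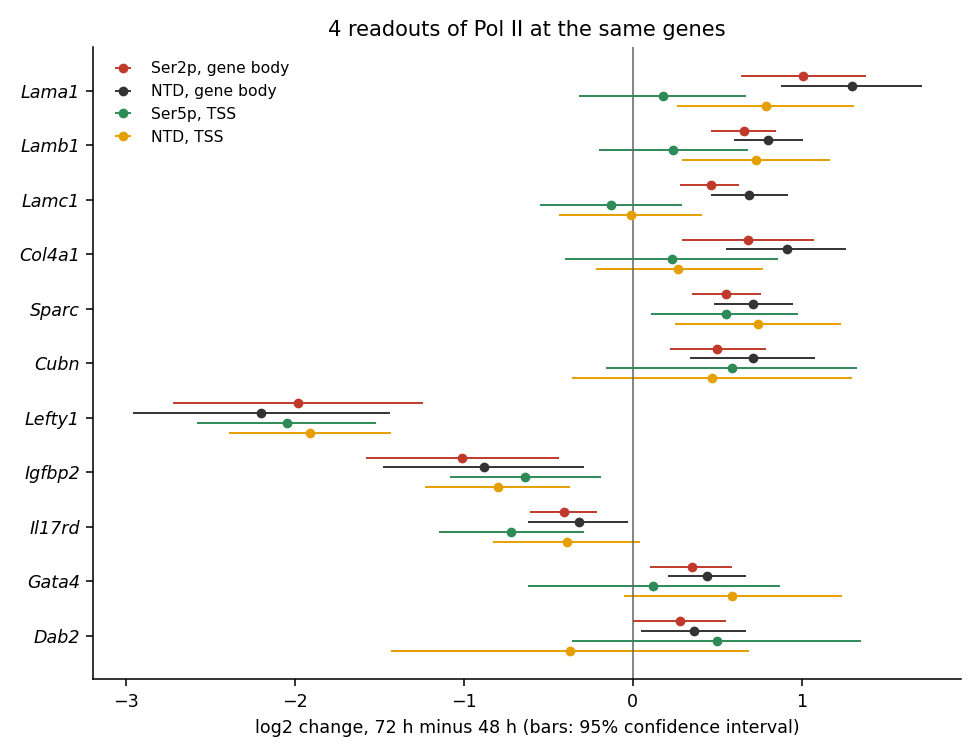
Log2 change from 48 h to 72 h (horizontal axis) with 95% confidence intervals for Ser2p and NTD over gene bodies and Ser5p and NTD at the TSS, at 11 genes. At Lama1 Ser2p lies at 1.01 and NTD over the body at 1.30, and at Lefty1 all 4 readouts lie near -2, from -1.91 to -2.20.

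Whether Ser2p changed otherwise than total Pol II was tested as an interaction of antibody and time over gene bodies. Ser2p and NTD libraries of the same time and replicate number entered the fit as unrelated, with no term for such pairs. What a test by pairs would call is therefore not known. The interaction was called at 0 of 32232 transcripts (0%) by edgeR, with 538 at an unadjusted p under 0.05, and at 0 by DESeq2, with 324. Each alternative run gave 0 calls as well. The difference, Ser2p minus NTD, was -0.28 at Lama1 (interval -0.87 to 0.31), -0.14 at Lamb1 (-0.41 to 0.14), -0.22 at Lamc1 (-0.52 to 0.07), -0.15 at Sparc (-0.45 to 0.14) and 0.23 at Lefty1 (-0.86 to 1.32). At the 4 matrix genes these intervals leave room for Ser2p to have changed less than NTD, and they do not show that both changed alike.

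None of the genes that place and read the Ser2 mark was called by edgeR. Of 45 Ser2 kinases, elongation and termination factors tested, 0 had an unadjusted p under 0.05, with a median of 0.05 and a range of -0.25 to 0.45. The kinase genes Cdk9 (-0.07 ± 0.16), Cdk12 (0.02 ± 0.11) and Cdk13 (0.07 ± 0.09) and the cyclin genes Ccnt1 (0.04 ± 0.14) and Ccnk (0.15 ± 0.13) were among them. The smallest p of the list was that of Nelfa, a subunit of the pausing factor NELF (-0.25 ± 0.12). Polr2a, the gene of the subunit that carries the repeat, stood at 30.9, 44.1 and 29.4 CPM at 48 h and at 26.4 and 44.8 CPM at 72 h, in each time highest in the library of highest contrast.

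No gene of the retinoic acid pathway itself was called by edgeR over its body. Of 24 genes of retinoic acid metabolism, binding and receptors, 4 had an unadjusted p under 0.05, all with lower values (background 1.59%), and the median was -0.03. The number in either direction was 2 without 48 h replicate 2 and 1 without 72 h replicate 3. Dhrs3, which encodes a retinaldehyde reductase, was at 30.6, 50.4 and 22.1 CPM at 48 h and at 23.2 and 18.4 CPM at 72 h (-0.72 ± 0.23). Cyp26a1, which encodes the enzyme that degrades retinoic acid, was at 6.71, 12.5 and 4.00 CPM and then at 4.63 and 2.84 CPM (-1.05 ± 0.38), and the times overlapped at both genes. NTD at the TSS was called lower at Cyp26a1 (-1.54 ± 0.31, adjusted p = 0.00613) and at Dhrs3 (-1.10 ± 0.25, adjusted p = 0.0200). The receptor gene Rarb was at 299.6, 261.3 and 276.7 CPM at 48 h and at 311.2 and 251.5 CPM at 72 h (0.01 ± 0.11), an interval of 0.860- to 1.18-fold. Per length Rarb had 0.671, 0.591 and 0.623 FPKM at 48 h and 0.700 and 0.577 at 72 h. These lie close to the medians of silent genes, so the interval bounds a signal near background. Of the 24 genes, 18 had a mean FPKM at or below the 95th percentile of silent genes, Rarb and Dhrs3 included.

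Of 15 anterior Hox genes, which pattern hindbrain and neck, 12 had lower values and 3 an unadjusted p under 0.05, all 3 lower (1.59% of all genes), with a median of -0.22. The number under 0.05 in either direction was 0 when 48 h replicate 2 (median -0.06) or 72 h replicate 3 was left out. It was 8 when 48 h replicate 3 was left out (median -0.37). Hoxb1 was at 5.03, 7.95 and 2.84 CPM at 48 h and at 3.21 and 3.41 CPM at 72 h (-0.68 ± 0.30). Hoxb4 had a change of -0.54 ± 0.23. Of the 15 anterior genes, 6 had a mean FPKM at or below the 95th percentile of silent genes. Of 24 posterior Hox genes 1 was higher and 1 lower at an unadjusted p under 0.05 (median -0.02), the former being Hoxa13, under 2 CPM in each of the 5 libraries. Of these 24 genes, 23 had a mean FPKM at or below the 95th percentile of silent genes. Among 12 Cdx and Hox cofactor genes, Meis1 was at 113.6, 124.6 and 130.3 CPM at 48 h and at 131.5 and 156.3 CPM at 72 h (0.23 ± 0.07). Of the cofactor list 3 had an unadjusted p under 0.05, and 0 when 72 h replicate 3 was left out. Cdx4 had -0.53 ± 0.17 and Cdx1 -0.11 ± 0.17. Of the 12 cofactor-list genes, 9 had a mean FPKM at or below the 95th percentile of silent genes, Cdx4 and Cdx1 included. Over all genes 3.06% had an unadjusted p under 0.05.

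Pluripotency genes were read in the same way. Of 12 general pluripotency genes 0 had an unadjusted p under 0.05 (median 0.04), and 3 of them, Pou5f1 and Tdgf1 included, had a mean FPKM at or below the 95th percentile of silent genes. Pou5f1, which encodes OCT4, was at 4.65, 3.54 and 3.37 CPM at 48 h and at 3.05 and 5.07 CPM at 72 h (0.07 ± 0.21). Sox2 was at 3.35, 3.93 and 4.00 CPM and then at 2.54 and 5.48 CPM (0.09 ± 0.33), and Nanog at 8.43, 10.5 and 12.5 CPM and then at 7.53 and 12.7 CPM (-0.05 ± 0.23). Per length Pou5f1 had 1.92 and 1.42 FPKM at 0 h, 1.04 to 1.43 at 48 h and 0.943 and 1.60 at 72 h. The 95th percentile of silent genes at 0 h was 1.33 FPKM in replicate 1 and 1.41 in replicate 4. In untreated replicate 4 Pou5f1 thus stood just above it, and these values do not check the label of the cells. Of 22 naive pluripotency genes 2 had lower values at an unadjusted p under 0.05 (1.59% of all genes), such as Nr0b1 (-0.52 ± 0.17), and the median was -0.05. Of the 22, 13 had a mean FPKM at or below the 95th percentile of silent genes, Nr0b1 included. NTD over the body of Nr0b1 had a change of 0.33 ± 0.24 and was not called. Zfp42, a naive marker, was at 19.6, 21.2 and 27.0 CPM at 48 h, and at 18.6 and 48.2 CPM at 72 h.

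A further group of genes was called on the values of 72 h replicate 3. Without 72 h replicate 1, edgeR called 30 transcripts of 19 genes higher and 0 lower, and among them Zyx, Tagln, Acta2, Tpm4 and Cnn2 encode parts of the actin cytoskeleton. At Sparc, Podxl and Zyx, 72 h replicate 1 also lay above all 48 h libraries, and at the other 16 genes it did not. In that fit the remaining 72 h library is assumed to vary like the other groups. Zyx was at 9.49, 10.0 and 9.42 CPM at 48 h and at 10.2 and 19.6 CPM at 72 h (0.63 ± 0.19, adjusted p = 1.00 with all libraries). Igf2, an imprinted growth factor gene, was at 6.18, 8.24 and 7.58 CPM at 48 h and at 7.07 and 19.8 CPM at 72 h (0.87 ± 0.27). Its change was 1.43 without 72 h replicate 1 (adjusted p = 8.27e-04) and -0.05 without replicate 3.

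The same 2 libraries parted at some immediate early genes, which respond to stimuli within minutes, and not in 1 direction. Egr1 was at 43.1, 26.1 and 61.6 CPM at 48 h and at 47.9 and 122.5 CPM at 72 h (0.97 ± 0.50). Junb was at 6.71, 8.48 and 6.95 CPM and then at 7.74 and 22.0 CPM (1.01 ± 0.37), while Fos was at 30.4, 16.4 and 37.6 CPM and then at 35.9 and 37.0 CPM (0.38 ± 0.31). Fosb was at 93.9, 54.5 and 98.5 CPM at 48 h and at 98.1 and 57.5 CPM at 72 h, lower in replicate 3 (-0.08 ± 0.36). Of 26 immediate early genes 7, such as Srf (0.51 ± 0.18), had an unadjusted p under 0.05, all with higher values (1.48% of all genes). The list median was 0.10, and was 0.37 without 72 h replicate 1 and -0.09 without replicate 3. Leaving out 48 h replicate 2 gave 3 genes at an unadjusted p under 0.05. Contrast was 11.98 in 72 h replicate 3 and 5.92 in 72 h replicate 1, and the cause of the differences at these genes was not tested. In 48 h replicate 2, the 48 h library of highest contrast, Egr1, Fos and Fosb were lowest and Junb was highest. With contrast as a covariate 8 of the 26 had an unadjusted p under 0.05, with a median of 0.08. In that fit 1677 of all 22154 genes had one, against 679 without the covariate.

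The ATF4 and amino acid response list, genes of amino acid supply under stress, had 19 of 22 members with higher values and 7 at an unadjusted p under 0.05 (median 0.22). Over all genes 10956 of 22154 had higher values, and 1.48% had a higher value at that p. Of the 22 members, 9 had a mean FPKM at or below the 95th percentile of silent genes. Chac1, which encodes an enzyme that breaks down glutathione, was at 2.68, 2.13 and 2.89 CPM at 48 h and at 3.41 and 10.1 CPM at 72 h (1.40 ± 0.41, adjusted p = 1.00). Ser5p at its TSS was 32.2, 33.0 and 28.4 CPM and then 45.9 and 121.5 CPM, and was called higher (1.43 ± 0.28, adjusted p = 0.0452), as was NTD there (1.73 ± 0.26, adjusted p = 2.13e-04). The ATF4 list median was 0.52 without 72 h replicate 1 and 0.03 without replicate 3. Of 24 SRF and YAP targets and cytoskeleton genes 5 had higher values at an unadjusted p under 0.05 (1.48% of all genes). The median of the 24 was 0.16, and was 0.47 without 72 h replicate 1 and -0.12 without replicate 3. Cytosolic ribosomal protein genes had a median of 0.22 (26 of 30 with higher values, 0 at an unadjusted p under 0.05), which was 0.69 without 72 h replicate 1 and -0.44 without replicate 3.

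**Figure D5:**
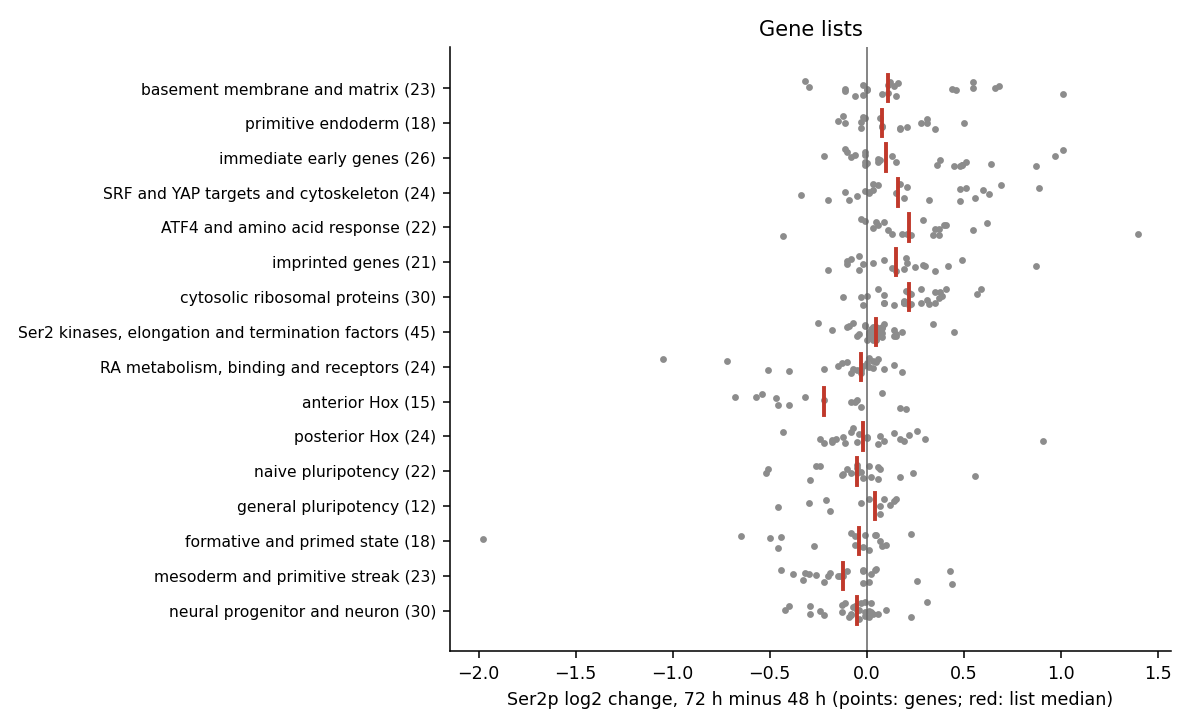
Log2 change of Ser2p from 48 h to 72 h (horizontal axis) for each tested gene (points) of 16 gene lists, with the number tested in brackets and the list median in red. List medians lie between -0.22 for anterior Hox genes and 0.22 for ATF4 and ribosomal protein genes, and single genes such as Lefty1 and Lama1 lie outside.

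Of 21 imprinted genes 6 had higher values at an unadjusted p under 0.05 (1.48% of all genes; list median 0.15). The list median was 0.33 without 72 h replicate 1 and 0.01 without replicate 3. The 72 h libraries of Airn were both above 48 h. Airn, a long noncoding RNA, was at 74.1, 82.1 and 81.5 CPM and then at 94.7 and 107.3 CPM (0.35 ± 0.08, adjusted p = 0.959), and it overlaps Igf2r, so their reads cannot be told apart. Of 14 LIF-STAT3 targets 3 had higher values at an unadjusted p under 0.05 (1.48% of all genes) and 2 had lower values (1.59%). The list median was 0.12 without 72 h replicate 1 and -0.18 without replicate 3. Lifr, the receptor gene of leukaemia inhibitory factor, was at 37.4, 32.3 and 34.2 CPM at 48 h and at 48.8 and 38.9 CPM at 72 h (0.34 ± 0.10).

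In the other signalling lists edgeR called no gene with all libraries, while Lefty1 (formative list) was called by DESeq2, and Lefty1 and Il17rd (FGF-ERK list) with the covariate. FGF-ERK feedback genes had 1 higher and 2 lower of 18 at an unadjusted p under 0.05 (median -0.07), Il17rd among them. Over all genes 1.48% were higher and 1.59% lower at that p. BMP and TGF-beta targets had 0 of 21 (median -0.01, Id1 at 0.52 ± 0.27), WNT targets and feedback 0 of 23 (-0.05, Wnt5a at -0.28 ± 0.13), and the Notch pathway 0 of 17 (-0.03, Notch2 at 0.13 ± 0.06). MHC class I and interferon genes had 2 of 21, both lower (-0.07, H2-K1 at -0.61 ± 0.23). The formative and primed state list had 2 of 18, the lower values of Lefty1 and Lefty2 (median -0.04). A mean FPKM at or below the 95th percentile of silent genes was found at 22 of 23 WNT and 14 of 17 Notch genes. It was also found at 16 of 21 BMP, 15 of 21 MHC, 11 of 18 formative and 8 of 18 FGF-ERK genes.

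Markers of other cell types gave no call by edgeR with all libraries. Most of these genes had a mean FPKM at or below the 95th percentile of silent genes, so their signal was near background. They were 29 of 30 neural, 22 of 23 mesoderm, 15 of 17 trophoblast, 14 of 24 epithelial and 11 of 14 mesenchymal genes. At an unadjusted p under 0.05, 1.48% of all genes were higher and 1.59% lower. Neural progenitor and neuron genes had 1 of 30, lower (Nkx6-1, -0.40 ± 0.16, median -0.05), with Pax6 at -0.11 ± 0.10, Sox1 at -0.05 ± 0.22 and Nes at 0.23 ± 0.15. Mesoderm and primitive streak genes had 1 of 23, lower (Fgf8, -0.44 ± 0.13, median -0.12). Trophoblast genes had 3 of 17, all higher (median 0.10; 1 of 17 without 72 h replicate 3), with the keratin gene Krt18 at 4.74, 5.77 and 6.79 CPM at 48 h and at 6.57 and 11.2 CPM at 72 h. Epithelial genes had 2 higher and 1 lower of 24 (median 0.04). Endothelial and blood markers had 1 of 16, lower (Sox18, -0.62 ± 0.27), and all 16 had a mean FPKM at or below the 95th percentile of silent genes. Fibroblast and smooth muscle markers had 2 higher and 1 lower of 15 (median 0.09), and 13 of 15 were at or below that percentile. The mesenchymal list had 1 of 14, lower (S100a4, -0.54 ± 0.25, median 0.01), with Snai1 at -0.04 ± 0.14. Of 12 two-cell-like genes 4 could be tested, and 0 had an unadjusted p under 0.05 (Usp17la, -0.75 ± 0.36).

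Among housekeeping lists, cell cycle and replication genes had 1 of 30, higher (Mki67, 0.30 ± 0.09, median 0.05), and cyclin D and Cdk inhibitor genes 0 of 15 (Cdk6, -0.11 ± 0.07), with Ccnd1 at -0.05 ± 0.23 and Cdkn1a at 0.06 ± 0.30. DNA methylation and Polycomb genes had 0 of 24 (Ezh1, 0.12 ± 0.06), p53 targets 0 of 20 (Sesn2, 0.35 ± 0.21) and heat shock chaperones 0 of 16 (Hspb1, 0.47 ± 0.22). Glycolysis and hypoxia genes had 0 of 24 (Vegfa, 0.23 ± 0.13) and cholesterol synthesis genes 0 of 20 (Insig1, -0.30 ± 0.17). Axon guidance and cell adhesion genes had 1 higher and 2 lower of 33, with Sema3e at -0.37 ± 0.10. Of these 33 genes, 32 had a mean FPKM at or below the 95th percentile of silent genes. At an unadjusted p under 0.05, 1.48% of all genes were higher and 1.59% lower. Reference genes had 0 of 17 (median 0.10), and Actb was at 41.9, 49.7 and 49.2 CPM at 48 h and at 38.4 and 95.8 CPM at 72 h, so a gene often used as a constant differed more between the 72 h libraries than between the times. Replication-dependent histone genes had 0 of 22, and their median, -0.07, was 0.56 without 72 h replicate 1 and -1.28 without replicate 3. Medians of other lists also depended on single 72 h libraries. Without replicate 1 they were 0.30 for the cell cycle, 0.12 for epithelial, 0.02 for fibroblast and smooth muscle and 0.41 for reference genes. Without replicate 3 they were -0.16, -0.06, -0.11 and -0.29 in the same order. Over all genes the median was -0.01 in both fits.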

How the data were processed

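Ser2p ChIP-seq of 18 libraries was used, 5 of them in the contrast. Per the submitters' processing notes, reads were handled with Bowtie2, SAMtools, MACS2 and DESeq2 on the builds mm10 and dm6; versions are not recorded there, and the counting tool is not given in the sources used here. The authors deposited raw read counts and FPKM per RefSeq transcript over gene bodies (Ser2p, NTD) and raw counts around the TSS (Ser5p, NTD), a normalized signal that is a constant times the counts, and their own log2 fold changes and adjusted p-values. A further 31 deposited columns with per-sample values were not used. The 106 Ser2p transcripts that carry an accession and no symbol (0.0166% of counts) were fitted, and left out of gene counts. Of the transcripts 10193 had exactly the counts of another.

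Counts were tested with edgeR 4.0.16 in R 4.3.3 (quasi-likelihood, TMM, filterByExpr; time as a factor, all libraries of a table, Benjamini-Hochberg 0.05), checked on simulated counts. DESeq2 1.42.0 was the alternative tool; figures used matplotlib 3.10.9 in Python 3.11.15. CPM are counts scaled with TMM factors; a ± after a log2 change is its SE. The interaction used both gene-body tables. Alternatives were the authors' scale factors, no filter, only 48 h and 72 h libraries, a replicate block, 1 transcript per symbol, each of the 5 libraries left out and, chosen after seeing the data, library contrast as a covariate and leaving out 0 h replicate 4, a library of low contrast.

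The rule for named genes took genes past the threshold (the 12 largest in each direction of at least 5 CPM; 0 passed), the 3 members of each of 39 lists with the smallest p among those past the threshold or else 1, 5 in each direction of the interaction (0 passed), and 27 fixed genes. Lamc1, Sparc, Col4a2, Lama1, Igfbp2 and other genes outside it were chosen after their values were seen. Members and lists were chosen with earlier results of these data known. Some genes are not reported here.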

Additional observations from a re-analysis of the deposited data

How the results depend on the processing

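Counts of Ser2p calls between 72 h and 48 h, 0 higher and 0 lower in edgeR, were 5 and 4 with DESeq2, 28 and 49 with library contrast as a covariate, and 0 and 0 with the authors' scale factors, without a filter, with only the 48 h and 72 h libraries, with 1 transcript per symbol or without 0 h replicate 4. Leaving out 1 library gave 0 to 30 higher and 0 lower. Without 48 h replicate 1, Lama1 and Lamb1 were called, and without 72 h replicate 3, those and Cubn. With the replicate block 1 was called higher (Lama1) and 0 lower. The labels do not say what a replicate number marks. Deviations of the same number correlated at 0.69 (replicate 1) and -0.37 (replicate 3). The deviations of the 2 libraries at 72 h mirror each other (correlation -1.0), so these values cannot show whether a number carries shared variation. With the block, the coefficient of variation between libraries was 0.0749, against 0.0899 without it. Transcripts at an unadjusted p under 0.05 numbered 1334 with the block, against 982. The interaction gave 0 in each of these settings but the covariate and the fit without 0 h replicate 4, where it was not run.

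With 1 library left out, changes ranged from -0.29 (without 72 h replicate 3) to 1.03 (without 72 h replicate 1) at Actb, from -0.05 to 1.43 at Igf2 and from -0.28 to 1.09 at Zfp42, in each case with the same libraries at the ends; the cause was not tested.

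For NTD over gene bodies (1 higher, 0 lower) the counts were 14 and 4 with DESeq2, 7 and 1 with the block, 0 and 0 with only the 48 h and 72 h libraries and 4 higher with 1 transcript per symbol; single libraries left out gave 0 to 1876 higher and 0 to 320 lower. For Ser5p at the TSS (4 and 1) there were 7 lower with DESeq2, 13 higher with only the 48 h and 72 h libraries, 78 and 13 with the block, and 0 to 172 higher and 0 to 20 lower without 1 library. For NTD at the TSS (159 and 14) there were 7 and 0 with DESeq2, 264 higher with only the 48 h and 72 h libraries, 9 lower with the authors' scale factors, 7 lower with 1 transcript per symbol, and 0 to 582 higher and 1 to 46 lower without 1 library.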
